A study of Homo sapiens with 4 samples.

Results

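Accessible chromatin was examined at 10 genes of NF-kB signalling and inflammatory cytokine output in the human melanoma line A375, an established cell line. Members were the listed regions that overlap the RefSeq GRCh38 span of IL6, CXCL8, CXCL1, CXCL2, CCL2, IL1A, IL1B, NFKB1, NFKBIA or TNFAIP3, extended by 20 kb on both sides. The rule found 44 of the 125986 regions in the authors' deposited table, with at least 1 region for each of the 10 genes. In ATAC-seq, the assay used, a transposase (Tn5) inserts tags where DNA is open, so that the reads in a region measure its accessibility. All cells were A375 grown in DMEM with 10% serum and collected at 48 h. The octanoate group (2 libraries) was given octanoate at 1 mM, which is a fatty acid of medium chain length, and the vehicle group (2 libraries) received isopropanol. All values are from 1 cell line, and the labels do not say whether the libraries of a group came from separate cultures. The p-values therefore rest on the spread between these libraries as modelled by the authors' DESeq2 fit, and that spread may be technical. With no value per library, the spread at a single region is not known.

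NF-kB is a family of dimeric transcription factors held in the cytoplasm by inhibitor proteins of the IκB family. Signals such as interleukin-1 or tumour necrosis factor lead to destruction of the inhibitor, and the freed dimers enter the nucleus and bind short kappaB sites near cytokine genes. The inhibitor gene NFKBIA and the ubiquitin-editing enzyme gene TNFAIP3 are themselves targets, which closes a negative feedback loop. Many melanoma lines secrete chemokines and interleukins of this programme without added stimulus.

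The deposited values were 1 mean normalized read count per region over the 4 libraries, with the log2 fold change of octanoate over vehicle, its standard error and p-values. No value of a single library was in the table, so none can be given, and the depth of each library is unknown. The authors' adjusted p covered 11185 regions, those with mean counts of 63.8 normalized reads or more, called tested regions here. The authors' deposited table has median log2 fold changes of 0.19 in tested regions and 0.23 in all regions, so a value of 0 lies below the middle of the regions. Changes below are measured from 0 unless they are said to be relative to the tested median. Melanocyte markers were checked at their promoter windows, the 250 bases before and 50 after a RefSeq start: 6 of the 8 had a window in the reference table, and MITF, DCT and PAX3 had a listed region there, while MLANA, TYR and TYRP1 had none. Of 6 leukocyte and 3 endothelial markers only 3 and 1 had a window, and no listed region lay there. Of 3 fibroblast markers only PDGFRA had a window. Its start region had a mean of 129.9 normalized reads in the authors' deposited table. Markers without a window could not be read.

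Promoters are shown first because they carry the kappaB letters by which this pathway is known and because most of them lay in open regions. RefSeq promoter windows of GRCh38.p14 were matched for 9 of the 10 genes, all but CCL2. The kappaB core GGANTTTCC, searched on both strands, was in 7 of their 11 windows, belonging to 7 genes. It was in 1.64% of 35116 promoter windows of the same length. The longer kappaB consensus, which can overlap the core, was in 6 of the 11 windows, belonging to 6 genes, and in 9.08% of all windows. The genes were chosen as NF-kB and cytokine genes, so these shares are descriptions only. The 150 bases before the start of each of the 7 genes follow, 5′ to 3′ on the gene's own strand, with kappaB matches of either form in capitals.

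CXCL8, chr4:73740419-73740568, plus strand: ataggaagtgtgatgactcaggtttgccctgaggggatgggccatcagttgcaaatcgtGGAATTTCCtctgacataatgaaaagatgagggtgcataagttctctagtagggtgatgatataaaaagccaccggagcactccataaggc
CXCL1, chr4:73869243-73869392, plus strand: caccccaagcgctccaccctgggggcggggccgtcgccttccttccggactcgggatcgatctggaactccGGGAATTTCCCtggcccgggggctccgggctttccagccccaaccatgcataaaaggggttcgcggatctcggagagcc
CXCL2, chr4:74099196-74099345, minus strand: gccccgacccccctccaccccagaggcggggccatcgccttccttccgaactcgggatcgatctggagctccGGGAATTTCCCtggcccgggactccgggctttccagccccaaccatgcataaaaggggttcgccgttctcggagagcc
IL6, chr7:22727050-22727199, plus strand: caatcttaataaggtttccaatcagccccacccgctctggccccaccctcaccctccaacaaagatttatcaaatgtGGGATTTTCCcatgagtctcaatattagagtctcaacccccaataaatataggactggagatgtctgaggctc
NFKB1, chr4:102501209-102501358, plus strand: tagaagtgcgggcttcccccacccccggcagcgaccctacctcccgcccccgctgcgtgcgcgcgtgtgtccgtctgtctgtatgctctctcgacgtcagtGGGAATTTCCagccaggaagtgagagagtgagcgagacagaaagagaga
NFKBIA, chr14:35404750-35404899, minus strand: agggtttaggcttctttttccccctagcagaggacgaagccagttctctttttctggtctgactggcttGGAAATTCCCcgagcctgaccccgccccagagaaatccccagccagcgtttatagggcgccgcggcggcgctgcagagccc
TNFAIP3, chr6:137867109-137867258, plus strand: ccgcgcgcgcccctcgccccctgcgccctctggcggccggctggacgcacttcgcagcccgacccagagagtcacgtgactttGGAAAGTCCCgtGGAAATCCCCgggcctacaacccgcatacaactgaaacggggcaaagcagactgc

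In all 7 stretches the capitals lay within 91 bases of the start, from positions -91 to -83 in CXCL8 to positions -49 to -40 in NFKB1, counting back from -1 at the base before the start. NFKBIA had a further core match outside the printed stretch, at positions -242 to -234. TNFAIP3 had 2 kappaB stretches side by side. CXCL1 and CXCL2, chemokine genes related by duplication, had the same match and promoter windows with 72.1% identical bases over 308 aligned columns. Reads from near-identical stretches of such copies can be assigned to the wrong gene, so their values may be less certain, which was not tested. The 150 bases of CXCL8, CXCL1, CXCL2, NFKB1, NFKBIA and TNFAIP3 lay wholly inside listed open regions, and those of IL6 lay in none. A match of letters is a description and does not show that NF-kB was bound.

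IL1A and IL1B, the interleukin-1 genes, had no kappaB match in their windows. The AP-1 motif TGANTCA was in 3 of the 11 member windows, those of IL1A and CXCL8, and in 7.71% of all windows. The box TATAAA, searched on both strands, was in 3 of the 11, for IL1A, CXCL8 and NFKBIA, and in 11.5% of all windows. The windows of IL1A, IL1B, CXCL8 and IL6, of which that of CXCL8 alone met a listed region, held 39.3% to 49.3% G and C. Those of CXCL1, CXCL2, NFKB1, NFKBIA and TNFAIP3, each in a listed region, held 62% to 73.7%, beside a median of 58.7% over all windows.

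Among the 6 start regions, those of the 3 regulators had higher means than those of CXCL2, CXCL1 and CXCL8. The difference was not tested, and the other cytokine genes had no start region to compare. A listed region overlapped the promoter window of 6 of the 9 genes, beside 71.7% of 15843 protein-coding genes with a window. The 3 genes without one were IL6, IL1A and IL1B. NFKB1, the gene of the p105 precursor and p50 subunit of NF-kB, had the start region with the most reads, a mean of 116.3 normalized reads over 2321 bases in the authors' deposited table. TNFAIP3 followed with 94.7 and NFKBIA, the gene of IκBα, with 60.1. The neutrophil chemokine genes CXCL2 and CXCL1 had 53.2 and 44.6 in that table, and CXCL8, the gene of interleukin-8, had 11.5 over only 337 bases. The CXCL8 region was therefore narrow as well as weak.

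Per kb of region the order of signal changed. CXCL2 had 53.8 normalized reads per kb, NFKB1 50.1, TNFAIP3 46.1, NFKBIA 43.6, CXCL8 34.0 and CXCL1 22.6, computed from the authors' deposited table. The median start region of all protein-coding genes had 52.0. CXCL2 was thus at percentile 52.3 of all start regions and CXCL1, whose region was 1972 bases wide, at percentile 7.26. With no value per library, the spread behind this order was not measured, and neighbours in it cannot be said to differ.

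No change at the 6 start regions passed the test. The deposited adjusted p was 0.840 at NFKB1 and 0.675 at TNFAIP3 (DESeq2, Benjamini-Hochberg), and the other start regions had means too low to be tested. Among all 44 member regions, 4 were tested and 0 passed the adjusted p threshold of 0.05, beside 1.02% of tested regions, all of them higher, in the authors' deposited table. At an unadjusted p under 0.05 the count was also 0 of 44, beside 3.76% of all 125986 regions. The lowest unadjusted p of a member region in the authors' deposited table was 0.124. With 4 tested regions and a background near 1.02%, a count of 0 is no result about these genes, and the sizes and intervals below say more.

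Measured from 0, the change at each start was smaller than its standard error. Relative to the tested median CXCL2, at -0.44, and NFKB1, at -0.29, were further away than their standard errors of 0.29 and 0.19. CXCL2 had the lowest value, a log2 fold change of -0.26 (standard error 0.29, unadjusted p 0.371) in the authors' deposited table, which implies group means of 57.9 normalized reads in vehicle and 48.4 in octanoate. NFKB1 had -0.10 (standard error 0.19) in that table, with implied means of 120.5 and 112.2. For CXCL1 the authors' deposited table gave -0.06 (standard error 0.32). NFKBIA had 60.2 and 60.1 implied normalized reads, which is -0.19 on the log2 scale relative to the tested median. CXCL8 had 0.14 (standard error 0.62) and TNFAIP3 0.21 (standard error 0.21) in the authors' deposited table, so 4 of the 6 start regions were below 0 and 2 above, and 5 of the 6 were below the tested median. Implied group means assume that the deposited mean is the average of the 2 groups.

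The intervals show what these data can and cannot see. The 95% interval of the log2 fold change, built on the standard error in the authors' deposited table, was -0.48 to 0.28 at NFKB1, -0.21 to 0.63 at TNFAIP3 and -0.53 to 0.52 at NFKBIA. At CXCL2 it ran from -0.82 to 0.31, and at CXCL1 from -0.69 to 0.56. Measured from 0, these 5 intervals hold neither a doubling nor a halving of accessibility. Measured from the tested median this is so for 4 of them, since the interval at CXCL2 then reaches down to -1.01. At CXCL8 the interval from -1.07 to 1.36 holds both, so even a change of that size cannot be told from none there.

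**Figure D1:**
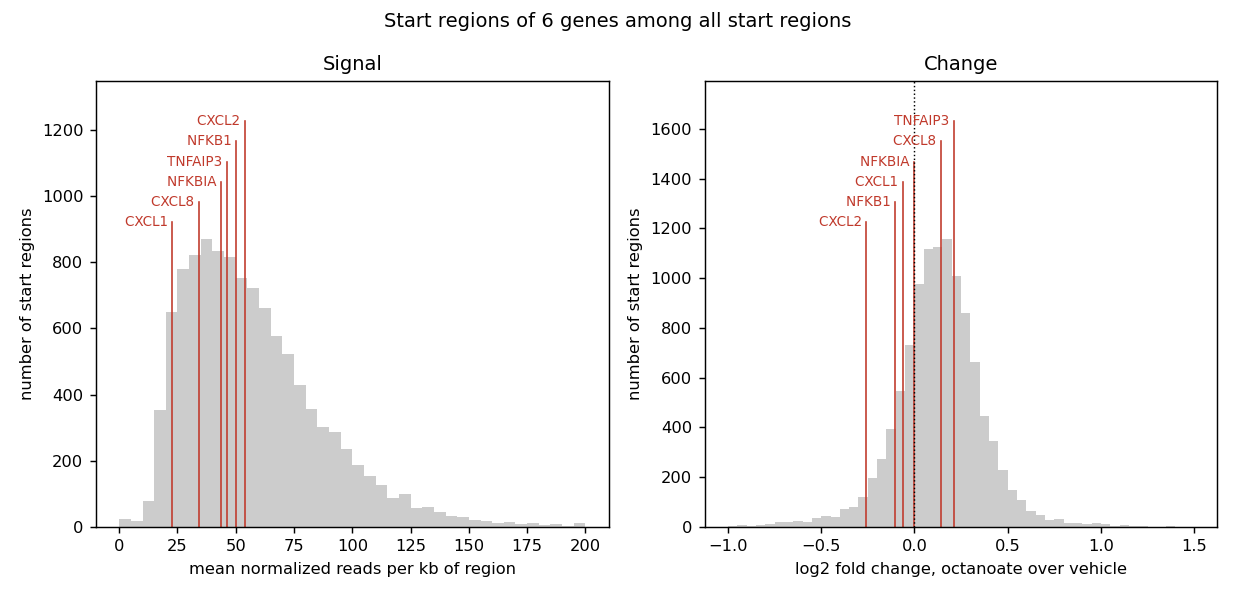
Number of start regions of protein-coding genes (grey bars) by mean normalized reads per kb (left) and by log2 fold change of octanoate over vehicle (right), with the 6 start regions of NF-kB and cytokine genes as red lines; values beyond the axes are not drawn. CXCL1 lies at the low side of the signal distribution at 22.6, and CXCL2, at -0.26, lies at the low side of the changes, while TNFAIP3 at 0.21 lies near the middle.

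Over all start regions of protein-coding genes the median log2 fold change was 0.14, and 76.0% of them were above 0, in the authors' deposited table. The 6 start regions had a median of -0.034 with 2 of 6 above 0. CXCL2 stood at percentile 4.61 of all start regions, NFKB1 at 12.2, CXCL1 at 15.9, NFKBIA at 23.6, CXCL8 at 51.3 and TNFAIP3 at 65.4. These places are descriptions, and the 95% intervals of all 6 regions included 0.14.

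The cytokine and chemokine genes held 19 of the 44 regions. IL6, the gene of the pleiotropic cytokine interleukin-6 (chromosome 7, 22727200 to 22731998), had 3 regions and none over its start. Its strongest region in the authors' deposited table, from 22725793 to 22726784, ended 416 bases before the start, with a mean of 23.2 normalized reads and a log2 fold change of 0.01 (standard error 0.43). The implied group means there were 23.2 in vehicle and 23.3 in octanoate. A region from 22731285 to 22731699, inside the gene near its far end, had a mean of 17.0 and a log2 fold change of 0.27 (standard error 0.51) in the authors' deposited table.

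CXCL8, CXCL1 and CXCL2 encode chemokines that attract neutrophils, and they lie in 1 cluster on chromosome 4. CXCL8 (73740569 to 73743716) had 2 regions besides its start, 10.6 and 14.2 kb before it, with log2 fold changes of -0.02 (standard error 0.67) and 0.42 (standard error 0.63) in the authors' deposited table. CXCL1 (73869393 to 73871308) had its start region alone, from 73867950 to 73869921. CXCL2 (74097040 to 74099195) had a start region from 74098723 to 74099711 and 3 more, 9.91 to 17.7 kb before the start. Of these 3, 2 overlapped the neighbouring gene MTHFD2L and the other had MTHFD2L as its nearest gene. The largest of the 3 had a mean of 46.7 normalized reads and a log2 fold change of 0.18 (standard error 0.31) in the authors' deposited table.

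CCL2 encodes a chemokine that attracts monocytes (chromosome 17, 34255285 to 34257203) and had 4 regions. The region over the lower end of its span, from 34254527 to 34255666, had a mean of 28.5 normalized reads and a log2 fold change of -0.14 (standard error 0.41) in the authors' deposited table. A region 16.1 kb below the span, from 34238511 to 34239213, had the lowest value among the members with a mean at or above their median: -0.54 (standard error 0.35, unadjusted p 0.125) in the authors' deposited table. Its implied group means were 41.6 normalized reads in vehicle and 28.6 in octanoate. Among the 44 regions this was the only one whose 95% interval, -1.24 to 0.15, did not include the tested median of 0.19. Relative to that median its unadjusted p was 0.0390, and it was too weak to enter the adjustment. Such a p under 0.05 was found in 1 of the 44 regions, beside 1.68% of all regions, so the count is near the background. A region 2.02 kb below the span went the other way, at 0.15 (standard error 0.40) in the authors' deposited table.

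IL1A and IL1B encode the alpha and beta forms of interleukin-1, which itself activates NF-kB. Neither start was in a listed region. The region nearest to the IL1A start lay 15.6 kb from it, and the 1 region of IL1B lay 23.6 kb from its start, past the far end of the gene. The strongest region of the IL1A window, from 112763966 to 112765201 on chromosome 2, overlapped the neighbouring gene CKAP2L. It was tested, with a mean of 83.9 normalized reads, a log2 fold change of 0.21 (standard error 0.23) with 0.705 as its adjusted p, in the authors' deposited table. Between the 2 genes, a region from 112803743 to 112804658 had 0.37 (standard error 0.38) and the IL1B region from 112812030 to 112813193 had 0.38 (standard error 0.42) in that table. Where no region is listed, the level of accessibility is unknown.

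The regulators NFKB1, NFKBIA and TNFAIP3 held 25 regions. NFKB1 is the longest member gene (chromosome 4, 102501359 to 102617302, 115.9 kb) and had 14 of them, 10 overlapping its span. Beside the start region, from 102500313 to 102502633, its strongest region lay inside the gene, 104.9 kb from the start, from 102606257 to 102607752. That region was tested, with a mean of 91.6 normalized reads and implied means of 81.2 in vehicle and 102.1 in octanoate. Its log2 fold change of 0.33 (standard error 0.22) came with 0.479 as adjusted p in the authors' deposited table. Thus the start and this inner region had values of opposite sign, -0.10 and 0.33, and the difference between them was not tested.

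Other NFKB1 regions spread widely around 0. The region from 102627661 to 102628295, 10.4 kb beyond the gene with MANBA as its nearest gene, had 0.69 (standard error 0.45, unadjusted p 0.124) in the authors' deposited table, the lowest p of the 44. Inside the gene, regions starting at 102552091 and 102575427 had -0.44 (standard error 0.47) and -0.47 (standard error 0.52) in the authors' deposited table. The highest value of all members, 1.35 (standard error 0.94), belonged to an inner region with a mean of only 6.01 normalized reads in the authors' deposited table, with implied means of 3.39 and 8.63. At such means the error is too large for a change of this size to be told from none.

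NFKBIA (chromosome 14, 35401513 to 35404749) had 6 regions. Its start region, from 35403782 to 35405162, covered the start and the first part of the gene and held 60.1 of the 99.2 normalized reads summed over the 6. The other 5 had means of at most 11.7 and log2 fold changes from -0.64 to 0.31 in the authors' deposited table, with standard errors of 0.61 to 1.13. Of the 6 regions, 5 were below 0.

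TNFAIP3 encodes A20, which ends NF-kB signalling (chromosome 6, 137866349 to 137883312), and had 5 regions, all above 0. The start region, from 137866277 to 137868331, held most of the signal, with implied means of 87.8 normalized reads in vehicle and 101.6 in octanoate. The other 4 lay 3.68 to 14.5 kb before the start, with means of 4.85 to 13.1 and log2 fold changes of 0.41 to 1.11 in the authors' deposited table. Their standard errors ran from 0.58 to 1.01, and no 95% interval left out 0. The median over the 5 regions was 0.47 in the authors' deposited table, the highest of the 10 genes, but it rests on weak regions, and the strongest had 0.21.

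**Figure D2:**
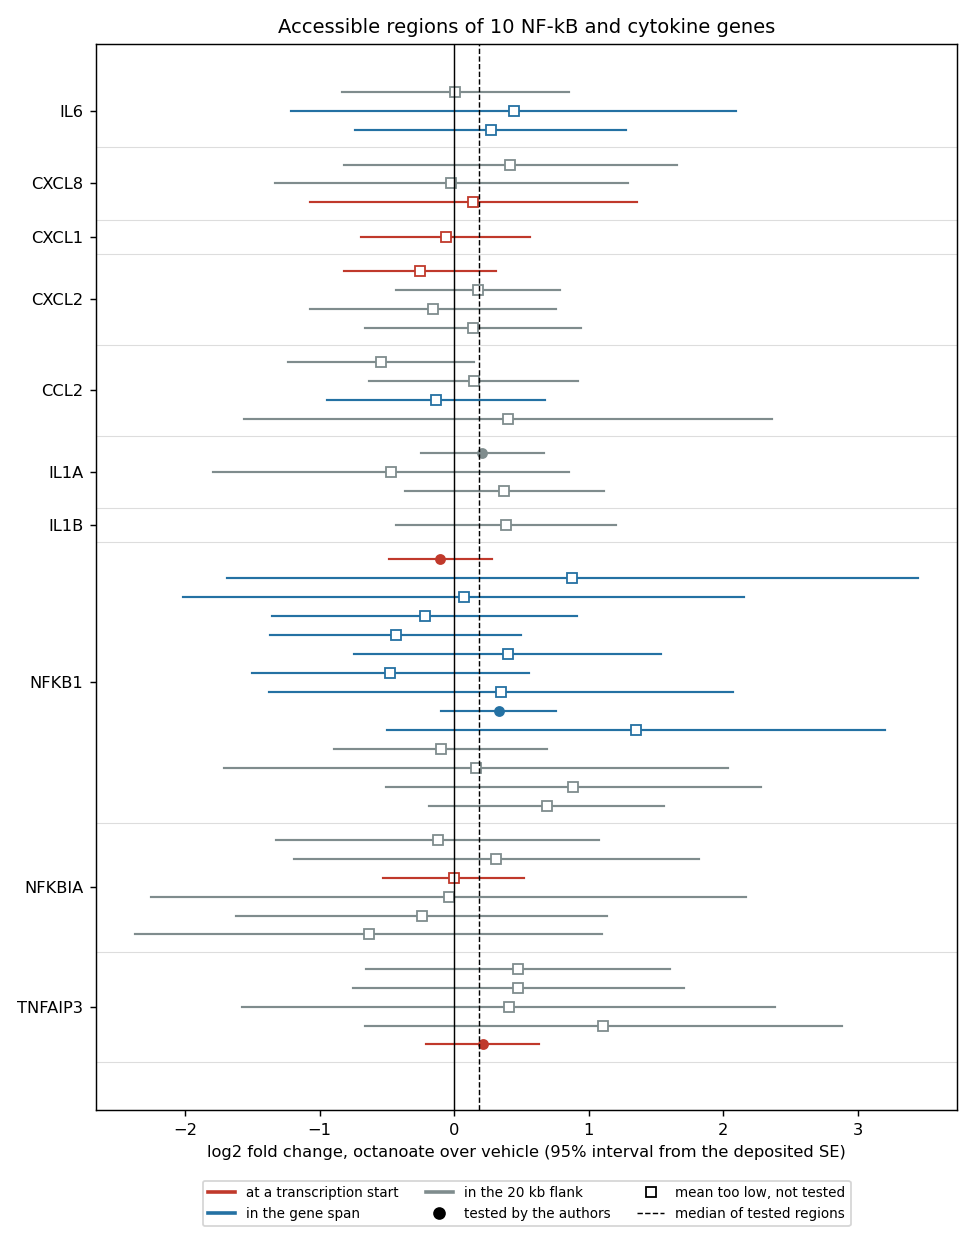
Log2 fold change of octanoate over vehicle (x axis) for each of the 44 regions, grouped by gene and in order of position, with 95% intervals from the deposited standard errors as bars; colours give the place of the region, filled circles the 4 tested regions, and the dashed line the tested median of 0.19. Every bar crosses 0, and the bars of weak regions are the longest, as at the NFKB1 region reaching from -1.69 to 3.45.

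The median change over the whole set depended on which regions were counted. The log2 fold changes of the 44 regions spanned -0.64 to 1.35 and centred on 0.15, their median, in the authors' deposited table, and 27 of the 44 (61.4%) were above 0. All regions had a median of 0.23 with 72.1% above 0, and the 80042 regions within 20 kb of any protein-coding gene had 0.22 with 72.7% above 0. The middle 50% of member regions lay between -0.11 and 0.40 and that of all regions between -0.039 and 0.52 in the authors' deposited table. The members' median was 0.0026 with 1 region per gene, 0.074 among regions with a mean at or above the median of all regions, and 0.21 in the 4 tested regions, where it was above the 0.19 of all tested regions. No test of these medians was made. Summed over the 44 regions, the implied normalized reads were 1073 in vehicle and 1140.2 in octanoate, a log2 ratio of 0.088, beside 0.21 for all nuclear regions.

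The error limits what can be seen away from the starts. The median standard error of the member regions was 0.58 in the authors' deposited table, beside 0.61 in all regions, 0.58 in those within 20 kb of a protein-coding gene and 0.22 in tested regions. The members' error was thus near that of regions in general. All 44 intervals included 0, and 43 included the tested median; the 1 other, at CCL2, stands beside the same 1.68% of all regions. The interval stayed between a halving and a doubling for 13 of the 44 regions, and for 10 when measured from the tested median. For the other 31, or 34, it reached past at least 1 of these sizes. A log2 fold change beyond 1 was listed for 2 regions, and both had means of at most 6.05 normalized reads in the authors' deposited table. Among all regions with means of 6 to 8, the 5th and 95th percentiles of the log2 fold change were -0.67 and 1.13. The count of 2 is therefore no result about the members.

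**Figure D3:**
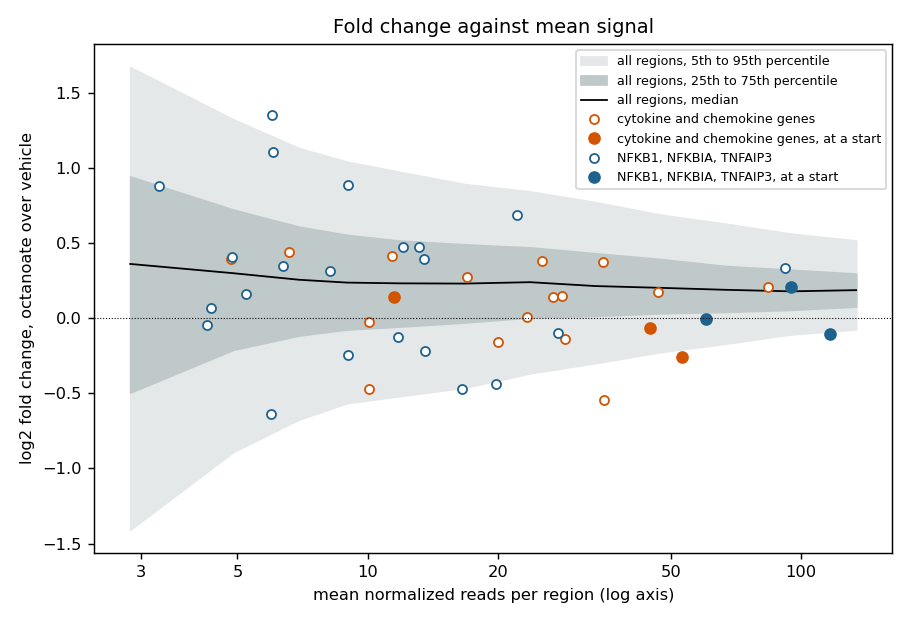
Log2 fold change of octanoate over vehicle against mean normalized reads (log axis) for the member regions, with the percentiles of all regions in the same range of mean as grey bands and their median as a line. Filled points are start regions; those of all genes but TNFAIP3 lie below the median line of regions with like means, and the spread of the points narrows to the right as the bands do.

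The 7 cytokine genes and the 3 regulator genes are described side by side, with no test of their difference. For cytokine regions the median log2 fold change was 0.14, with 12 of 19 above 0, and regulator regions 0.21 and 15 of 25 above 0, in the authors' deposited table. The difference of medians, cytokine minus regulator, was -0.070. It was -0.16 without the start regions and turned to 0.14 when only regions with a mean at or above the median of all regions were kept. The median widths of the 2 sets were 703 and 394 bases.

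**Figure D4:**
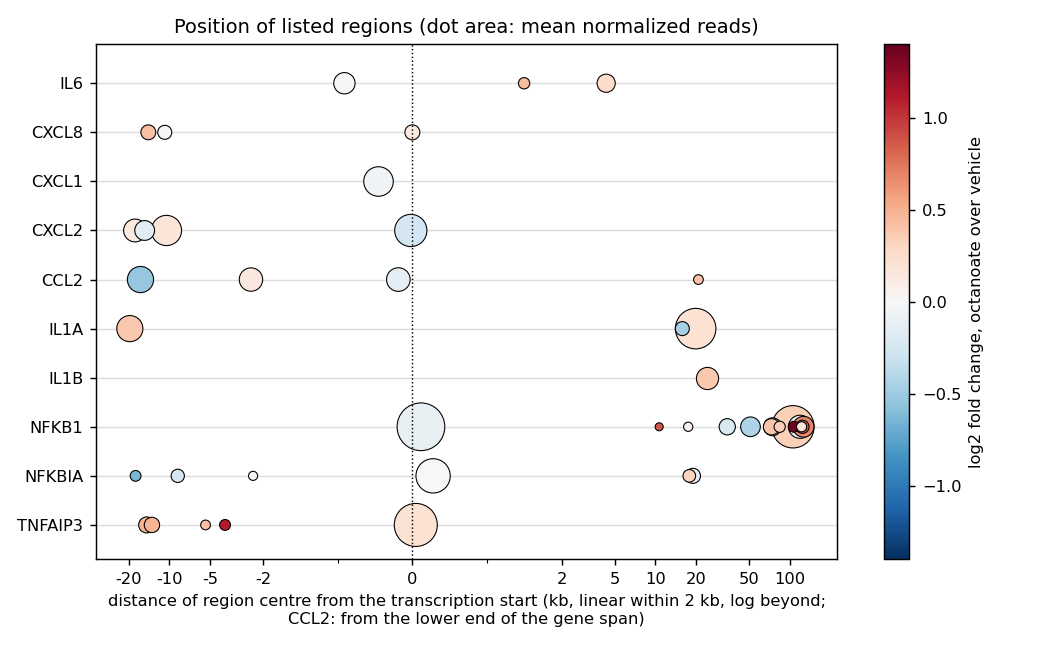
Distance of each region's centre from the transcription start of its gene in kb (x axis, linear within 2 kb and logarithmic beyond; for CCL2 from the lower end of its span), with dot area proportional to the mean normalized reads and colour giving the log2 fold change. Strong pale dots lie at the starts of NFKB1, NFKBIA and TNFAIP3, the lines of IL6, IL1A and IL1B hold no dot at 0, and the strongest colours are in small dots, as at TNFAIP3 at -3.85 kb.

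The surroundings of the genes had different levels of change. Within 1 Mb of CXCL8, CXCL1, CXCL2 and IL6, the other listed regions had median log2 fold changes of 0.019 to 0.045 in the authors' deposited table, and around NFKBIA the median was 0.054. The windows of CXCL8, CXCL1 and CXCL2 are largely the same stretch, with 74 of their 105 regions in all 3. Around NFKB1, IL1B and IL1A the medians were 0.16, 0.18 and 0.19, near the tested median. Around CCL2 the median was 0.41 over 59 regions and around TNFAIP3 0.32 over 93. The CCL2 region at -0.54 therefore lay in a stretch where other regions were mostly above 0. The part of these surroundings in the values of single genes was not tested.

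Of 53 other genes of the pathway, 51 had a region within the same 20 kb and 2, the receptor gene CXCR2 and the chemokine gene CXCL10, had none. They held 254 regions, of which 37 were tested, and at the adjusted p threshold of 0.05 the authors' deposited table had 1 higher and 0 lower regions, beside 1.02% of all tested regions, so the count is near the background. The region that rose lay 242 bases beyond the far end of CCL20, which encodes a chemokine for dendritic cells and lymphocytes (chromosome 2, 227817798 to 227819228). Its mean was 117.3 normalized reads, with implied means of 85.4 in vehicle and 149.2 in octanoate. Its log2 fold change was 0.81 (standard error 0.19, adjusted p 0.0101) in the authors' deposited table. Relative to the tested median it was 0.62 with an adjusted p of 0.356, so the call is lost after centring. The other 2 regions of CCL20 were below 0, at -0.49 (standard error 0.37) and -1.13 (standard error 0.67) in the authors' deposited table, and neither was tested. The start of CCL20 was in no listed region.

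At an unadjusted p under 0.05, 5 of the 37 tested pathway regions passed, beside 14.9% of all tested regions in the authors' deposited table, which is no more than the background. The median log2 fold change of the 254 regions was 0.20, and 187 of them (73.6%) were above 0, beside 72.1% of all regions in the authors' deposited table. A listed region lay at the start of 35 of the 46 genes with a promoter window. These starts held 40 regions, with 33 (82.5%) above 0 and 0.17 as their median, beside 76.0% and 0.14 for all start regions and 2 of 6 and -0.034 for the members, in the authors' deposited table; these differences were not tested. At single starts, RELA, the gene of the p65 subunit, had -0.05 (standard error 0.31), and NFKB2, the gene of the p100 precursor, had 0.19 (standard error 0.22) in the authors' deposited table. MYD88, the adaptor of interleukin-1 and Toll-like receptors, had the start region with the most reads of this list, a mean of 211.9 normalized reads and a change of 0.23 on the log2 scale (standard error 0.15) in the authors' deposited table. CXCL3, a further copy beside CXCL2 whose promoter window is 82.5% identical to that of CXCL1, had 0.13 (standard error 0.32) at its start in the authors' deposited table.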

How the data were processed

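ATAC-seq of A375 cells was compared between octanoate and vehicle, 2 libraries each, from 1 table the authors deposited. The submitters' processing notes name Trim Galore, cutadapt, Bowtie2, Picard, MACS2, featureCounts and DESeq2, and the build hg38, with no role or order. Whether reads were shifted to the cut position of Tn5 is not given in the sources used here. Per the file headers, the authors' signal is the mean normalized read count, their log2 value the fold change with its standard error, their score the Wald statistic, and their p-value two-sided. The scaling is not stated. Recomputation gave the deposited score to within 2.31e-14. The adjusted p equalled Benjamini-Hochberg over 11185 regions and was listed as 1 in the other 114801, treated as not tested.

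Coordinates count from 1. Gene spans came from RefSeq GRCh38.p14, whose table pairs all 10 symbols. It was used without exons or introns, so these are not given. Intervals are the log2 fold change plus and minus the normal 95% range. Centring subtracted the tested median, and its p-values were adjusted by Benjamini-Hochberg over the tested regions. Python 3.11.15, pandas 2.3.3 and scipy 1.17.1 were used. Members and lists were chosen with earlier results of these data known. Named were, for each gene, the start region, the strongest region and any with p under 0.05; the 5 largest and 3 smallest changes among regions with a mean of at least 13.5, the members' median; and pathway regions past the threshold. Other regions and pathway starts named were chosen after their values were seen. Alternatives were other thresholds, adjustments, centrings, windows and filters.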

Additional observations from a re-analysis of the deposited data

How the results depend on the processing

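The count of 0 member regions past the threshold stayed 0 under every setting run: an adjusted p of 0.1 or 0.01, adjustment over all regions, no adjustment, centring on the median of the tested or of all regions, and spans with 0 or 50 kb added. The last held 73 regions with a lowest p of 0.0818. Since the lowest unadjusted p of the 44 regions was 0.124, the other thresholds, the adjustment over all regions and the unextended spans could only give 0. After centring on the tested median 0.0536% of all tested regions passed, so a count of 0 there is no result either. Without adjustment, that centring gave 1 of the 44 regions, at CCL2, a p under 0.05, beside 1.68% of all regions. The members' median of 0.15 ran from 0.0026 (1 region per gene) to 0.21, and from 0.14 to 0.19 without 1 gene. It turned to -0.075 after centring on the median of all regions and to -0.032 on the tested median, because these exceed it. The share above 0, 61.4%, was 50% with 1 region per gene, 54.2% at or above the median mean of all regions, 55.6% without the extension, 64.4% with 50 kb and 75% in tested regions, and ran from 56.4% without TNFAIP3 to 68.4% without NFKBIA; 40.9% of member regions were above the median of all regions and 45.5% above the tested median. For cytokine minus regulator regions the difference of -0.070 became -0.16 without start regions and 0.14 among regions with a mean at or above the median of all regions; the cause was not tested, and both settings were chosen after seeing the data. The count of 1 pathway region became 2 at an adjusted p of 0.1, 0 after centring and 0 without the extension, since the CCL20 region lies outside its gene. With 37 tested regions and a background of 0.0536% after centring, the 0 there is no result about this list. No paired analysis was possible because values of single libraries were not in the file used. This is also why leaving out a library and other scalings were not run. The mean of at least 63.8 normalized reads needed for an adjusted p kept 40 of the 44 regions out of the tested set.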

Other observations

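Among pathway genes, 16 of 254 regions (6.30%) had an unadjusted p under 0.05, 15 higher and 1 lower, where the authors' deposited table has 3.76% among all regions. The split of direction was like that of all regions, where 4507 were higher and 225 lower. Relative to the tested median, 6 of the 254 regions (2.36%) had a p under 0.05, beside 1.68% of all regions, so the gap to the background was smaller on that scale. Of the 16, 11 were too weak to be tested. They were singled out after their values were seen. A region inside TRAF6, which encodes a ubiquitin ligase of interleukin-1 signalling (chromosome 11, 36500278 to 36500885), had a log2 fold change of 1.36 (standard error 0.37, p 0.000223, and 0.00146 relative to the tested median) at a mean of 38.6 normalized reads in the authors' deposited table. The 4 regions of TRAF6 had a median of 0.040. Its start region, with a mean of 129.8 normalized reads, had -0.05 (standard error 0.18) in that table. IRAK2, a kinase-family gene of interleukin-1 signalling, had 3 of the 16 regions inside its span, at 0.53, 1.00 and 1.26 in the authors' deposited table. Relative to the tested median their p were 0.204, 0.0784 and 0.0556. The start region of IL11, a cytokine of the interleukin-6 family, had 0.66 (standard error 0.30), and that of IL6R, the interleukin-6 receptor gene, had 0.50 (standard error 0.23), in the authors' deposited table. Relative to the tested median their p were 0.109 and 0.168. The 1 lower region lay 19.3 kb from CXCL6 in the chemokine cluster of chromosome 4, at -1.70 (standard error 0.67, p 0.00468 relative to the tested median) with a mean of 10.8 normalized reads in the authors' deposited table.

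A region 18.2 kb from CSF2, which encodes the growth factor GM-CSF (chromosome 5, 132094375 to 132095495), was just short of the threshold, at 0.90 on the log2 scale (standard error 0.27) with 0.0588 as adjusted p in the authors' deposited table and an adjusted p of 0.802 after centring.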
